A study of Arabidopsis thaliana with 12 samples.

Results

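The thylakoid lumen is the narrow aqueous space inside the thylakoid membranes of the chloroplast, and its soluble proteins are encoded in the nucleus and imported. They include relatives of PsbP, an extrinsic subunit of the water-splitting complex of photosystem II, proteins built from pentapeptide repeats, and immunophilins, which are peptidyl-prolyl isomerases of the FKBP and cyclophilin families. Many of them serve the assembly and repair of the photosystems, and for others no function is settled. The list examined here held 32 Arabidopsis thaliana genes, chosen by locus code for their protein product, with earlier results of these data known. A gene counted as measured where a probe set of the array was paired with that gene and no other, and 20 of the 32 met this rule, out of 16550 genes measured on the array. These 20 were 5 PsbP-like genes of 8 listed, all 3 pentapeptide genes, 7 FKBP genes of 9, 1 cyclophilin gene of 3 and 4 of 6 further lumen protein genes, PSB27 among them.

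The 12 remaining genes have no value in the comparisons below. They were PPD1, PPD5, PPD6, PnsL1, PnsL2, PnsL3, PnsL4, FKBP13, CYP38, TLP18.3, AT4G24930 and AT3G15520, and the last pair lies on probe sets shared with another gene. PnsL1 to PnsL4 are lumen subunits of the chloroplast NADH dehydrogenase-like (NDH) complex, so none of the listed subunits of that complex was measured. Of the genes without a value, 10 of 12 carry a RefSeq symbol other than the locus code, against 1 of the 20 measured genes. Such a symbol is also scarcer among all 16550 genes tested (10.65%) than among RefSeq protein-coding genes (38.07%). Most measured genes are therefore given here by locus code and protein family.

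Gene expression was measured in seedlings that overexpress CLE2, a gene for a small signalling peptide, from an estradiol-inducible system. All groups carried this system, and no seedlings without it were given estradiol, so the effects of estradiol and of CLE2 cannot be told apart. Seedlings were 7 days old and were grown at 22 °C under continuous white light on vertical plates; for 24 h their roots received β-estradiol (5 mM by the label) or DMSO, its solvent. The treatment text gives that concentration for all 12 samples, those labelled DMSO included, so it was not used to separate the groups, and its accuracy is uncertain. The 12 arrays, 1 per sample, fall into 4 groups of 3, which are estradiol shoots, DMSO shoots, estradiol roots and DMSO roots. The labels name neither a cell type for the induction nor the number of transgenic lines. They also do not state that replicates were separate cultures; each p therefore reflects variation among these 12 samples alone, possibly technical.

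Values are log2 signals. No level is set against that of another probe set, except where a filter on dim genes in an alternative run uses the median gene mean. Between 2 arrays of a group the correlation over all genes was 0.986 or higher, and between a root and a shoot array it was at most 0.870. All 7 measured shoot markers of 15 listed were higher in shoots, in estradiol and in DMSO seedlings. All 7 measured root markers of 14 listed were higher in roots in both. These marker lists were partly taken from earlier results of the same arrays, and all were chosen with those results known. Their directions are therefore no independent check of the organ labels. CLE2 was not analysed here, so its induction did not check the treatment labels. The third DMSO root array stood apart in its shoot signal. The log2 signals of the 7 shoot markers summed to between 34.4 and 35.4 on the estradiol root arrays. On the DMSO root arrays they summed to between 33.2 and 43.5, with 43.5 on that array. Shoot-enriched genes outside the lumen list, at least 5 log2 units higher in shoots than in roots, were also read. The 25 chosen on the DMSO arrays summed to 103.3, 93.1 and 94.4 on the estradiol root arrays, highest on the first. The 26 chosen on the estradiol arrays summed to 94.2, 108.1 and 120.0 on the DMSO root arrays.

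All 20 measured lumen genes were higher in shoots than in roots, in estradiol seedlings and in DMSO seedlings alike. For each of them, every shoot array lay above every root array of the same treatment. By limma with Benjamini-Hochberg adjustment over all 16550 genes, 20 of 20 were called higher in shoots at an adjusted p under 0.05 in estradiol seedlings, where 26% of all genes were, and 20 of 20 in DMSO seedlings, where 25.8% were. Groups without overlap, with all shoot arrays higher, were found for 30.8% of all genes in estradiol seedlings and for 30.3% in DMSO seedlings. The median shoot minus root log2 difference of the 20 genes was 2.99 in estradiol seedlings and 3.03 in DMSO seedlings, beside medians of 0.09 over all genes in both. An at least 8-fold excess in shoots, called at the same threshold, was reached by 10 of the 20 in estradiol seedlings (1.53% of all genes) and by 11 of the 20 in DMSO seedlings (1.49% of all genes). Because the list was chosen with earlier results of these arrays known, these counts are a description and no independent support. In bulk tissue, fewer green cells and less RNA per cell cannot be told apart.

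**Figure D1:**
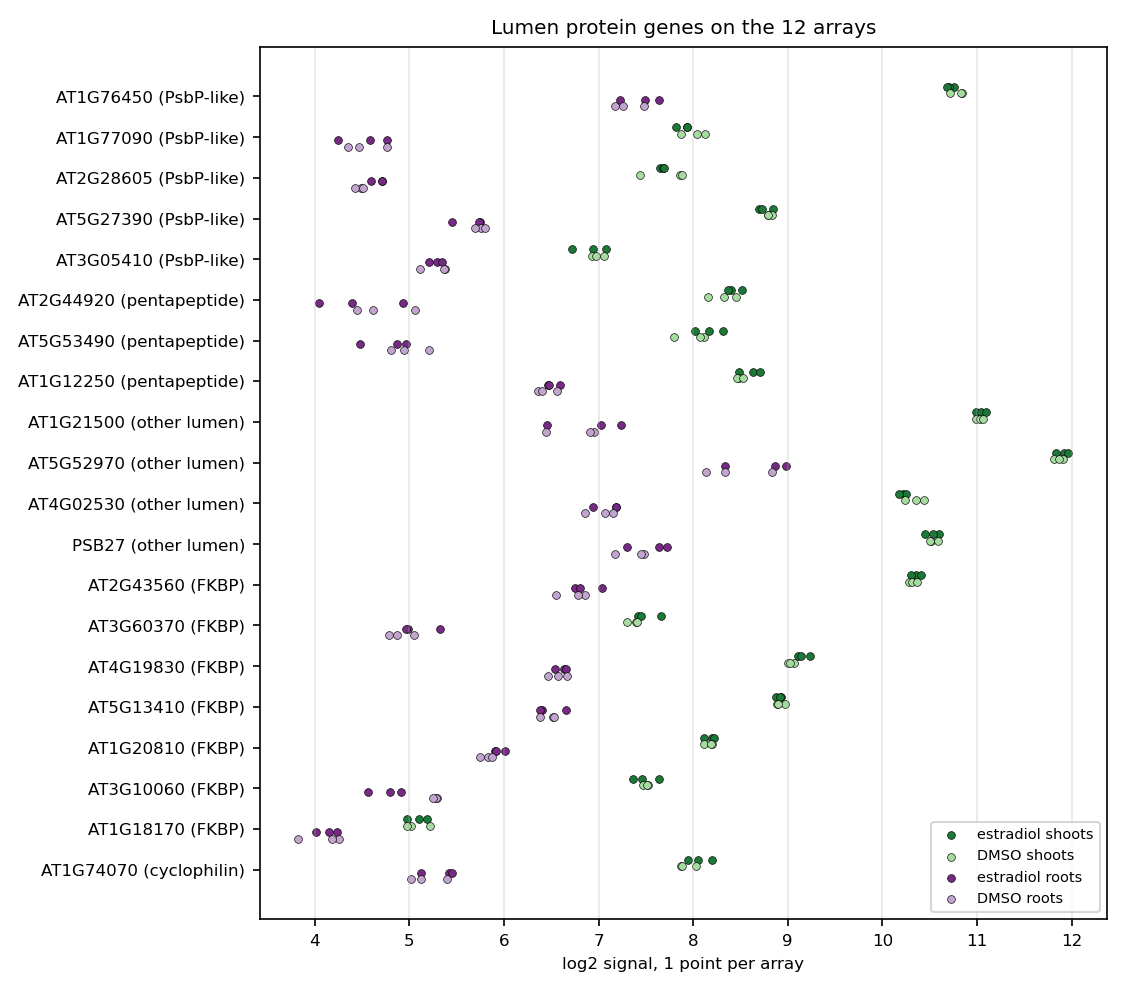
Log2 signal of the 20 measured lumen genes (x axis, 1 point per array) by gene and family (y axis), in estradiol shoots, DMSO shoots, estradiol roots and DMSO roots, 3 arrays each. For all 20 genes the 6 shoot points lie to the right of the 6 root points; the distance is smallest for AT1G18170.

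The PsbP-like genes encode relatives of PsbP, the extrinsic photosystem II subunit. Among the 5 measured, AT1G76450 had the largest organ difference in DMSO seedlings; in estradiol seedlings that of AT1G77090 was larger. The log2 signals of AT1G76450 were 10.75, 10.70 and 10.68 in estradiol shoots and 10.84, 10.83 and 10.72 in DMSO shoots. In roots they were 7.23, 7.49 and 7.63 with estradiol and 7.25, 7.18 and 7.48 with DMSO. The shoot arrays of both treatments lay within a narrow band, more than 3 log2 units above every root array. The shoot excess was 3.26 ± 0.12 (SE) in estradiol seedlings and 3.49 ± 0.12 in DMSO seedlings, a 9.60-fold and an 11.2-fold difference (limma adjusted p = 1.31e-09 and 7.57e-10).

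AT1G77090, AT2G28605 and AT5G27390, also PsbP-like, had differences close to that. In estradiol seedlings AT1G77090 reached 3.36 and AT5G27390 3.11 on the log2 scale, while AT2G28605 differed 8.02-fold. In DMSO seedlings the differences of AT1G77090, AT2G28605 and AT5G27390 were 3.48, 3.25 and 3.06. AT3G05410 had the smallest difference of the family, with 6.72, 6.94 and 7.08 in estradiol shoots against 5.29, 5.21 and 5.34 in estradiol roots. In DMSO shoots it was at 6.93, 6.98 and 7.06, against 5.38, 5.11 and 5.36 in DMSO roots. Its shoot excess was 1.63 ± 0.11 (SE) in estradiol seedlings and 1.71 ± 0.11 in DMSO seedlings, 3.10-fold and 3.26-fold. The 95% interval in DMSO seedlings, 1.46 to 1.95, lay below those of the other 4 PsbP-like genes, the lowest of which began at 2.85.

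The pentapeptide genes encode proteins whose repeats of 5 residues stack into a right-handed helix. AT2G44920 had the largest organ difference of the 3. It was at 8.40, 8.37 and 8.51 in estradiol shoots and 4.04, 4.94 and 4.39 in estradiol roots. In DMSO shoots it was at 8.45, 8.15 and 8.32, against 4.44, 5.06 and 4.62 in DMSO roots. The root arrays scattered far more than the shoot arrays, and in both treatments the second root replicate was the highest. Its shoot excess was 3.97 ± 0.21 (SE) in estradiol seedlings and 3.60 ± 0.21 in DMSO seedlings, 15.7-fold and 12.1-fold (limma adjusted p = 2.45e-08 and 5.46e-08).

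AT5G53490 was higher in shoots by 3.40 ± 0.16 (SE) in estradiol seedlings and 3.01 ± 0.16 in DMSO seedlings. AT1G12250 had the smallest difference of the family, with 8.64, 8.48 and 8.71 in estradiol shoots against 6.47, 6.48 and 6.59 in estradiol roots. In DMSO seedlings it was at 8.48, 8.46 and 8.53 in shoots, against 6.36, 6.56 and 6.40 in roots. Its shoot excess was 4.28-fold in estradiol seedlings and 4.15-fold in DMSO seedlings, and the replicates of each group stayed close together.

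PSB27 (AT1G03600) assists the assembly and repair of photosystem II. It was at 10.60, 10.45 and 10.54 in estradiol shoots against 7.30, 7.72 and 7.64 in estradiol roots, and at 10.52, 10.50 and 10.59 in DMSO shoots against 7.18, 7.48 and 7.45 in DMSO roots. In both treatments the first root replicate was the lowest. Its shoot excess was 2.98 ± 0.12 (SE) in estradiol seedlings and 3.17 ± 0.12 in DMSO seedlings, 7.86-fold and 8.98-fold.

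AT1G21500, a listed lumen protein gene to which no function is assigned here, had the largest organ difference of all 20. It was at 10.99, 11.04 and 11.10 in estradiol shoots against 6.46, 7.24 and 7.02 in estradiol roots, and at 10.99, 11.03 and 11.07 in DMSO shoots against 6.45, 6.96 and 6.91 in DMSO roots. Again the first root replicate of each treatment was low, by more than 0.4 log2 units, while the shoot arrays were almost level. The excess was 17.6-fold in estradiol seedlings and 19.1-fold in DMSO seedlings (limma adjusted p = 6.47e-09 and 5.04e-09). It ranked 68 among all 16550 genes by this difference in estradiol seedlings and 54 in DMSO seedlings. The other 2 genes of this group, AT4G02530 and AT5G52970, were higher in shoots by 3.11 and 3.18 in estradiol seedlings and by 3.32 and 3.43 in DMSO seedlings.

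Immunophilins as a class are known for turning the peptide bond before proline, which can assist protein folding. Whether the products of the genes measured here do so was not examined. Of the 7 FKBP genes measured, AT2G43560 had the largest organ difference. It was at 10.35, 10.41 and 10.30 in estradiol shoots against 6.75, 7.04 and 6.80 in estradiol roots, and at 10.29, 10.31 and 10.37 in DMSO shoots against 6.55, 6.85 and 6.78 in DMSO roots. The excess was 11.2-fold in estradiol seedlings and 12.1-fold in DMSO seedlings (limma adjusted p = 4.29e-10 and 3.56e-10), the smallest adjusted p of the lumen genes in both treatments.

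The next 5 FKBP genes lay between these extremes. In estradiol seedlings AT3G60370, AT4G19830, AT5G13410, AT1G20810 and AT3G10060 were higher in shoots by 2.42, 2.55, 2.43, 2.23 and 2.73, and the 95% interval of AT3G10060, from 2.50 to 2.96, did not overlap that of AT1G20810, from 2.06 to 2.41. In DMSO seedlings these genes were higher by 2.47, 2.46, 2.45, 2.35 and 2.23, with overlapping 95% intervals. AT3G10060 is the only gene of the 20 whose organ difference moved by more than 0.4 between the treatments. That move was not called (limma adjusted p = 0.657), and the gene is taken up with the estradiol comparison.

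AT1G18170 differed least between the organs among all 20 genes. It was at 5.10, 5.18 and 4.97 in estradiol shoots against 4.15, 4.01 and 4.24 in estradiol roots, and at 5.02, 5.22 and 4.98 in DMSO shoots against 3.83, 4.26 and 4.19 in DMSO roots. The shoot arrays still lay above all root arrays, by more than 0.7 log2 units. The excess was 0.95 ± 0.13 (SE) in estradiol seedlings and 0.98 ± 0.13 in DMSO seedlings, just under 2-fold at 1.93-fold and 1.97-fold (limma adjusted p = 6.02e-05 and 4.63e-05). It was also the only lumen gene whose mean over the 12 arrays lay below the median gene mean of 5.26, the limit of that filter. With 16 added to linear values its excess was 0.57 in estradiol seedlings and 0.59 in DMSO seedlings. Whether its low signal narrows the difference was not tested.

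The cyclophilin gene AT1G74070 was at 7.95, 8.20 and 8.05 in estradiol shoots against 5.42, 5.45 and 5.12 in estradiol roots. In DMSO seedlings it was at 7.87, 8.03 and 7.88 in shoots against 5.02, 5.40 and 5.13 in roots. Shoots exceeded roots 6.66-fold in estradiol seedlings and 6.70-fold in DMSO seedlings.

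**Figure D2:**
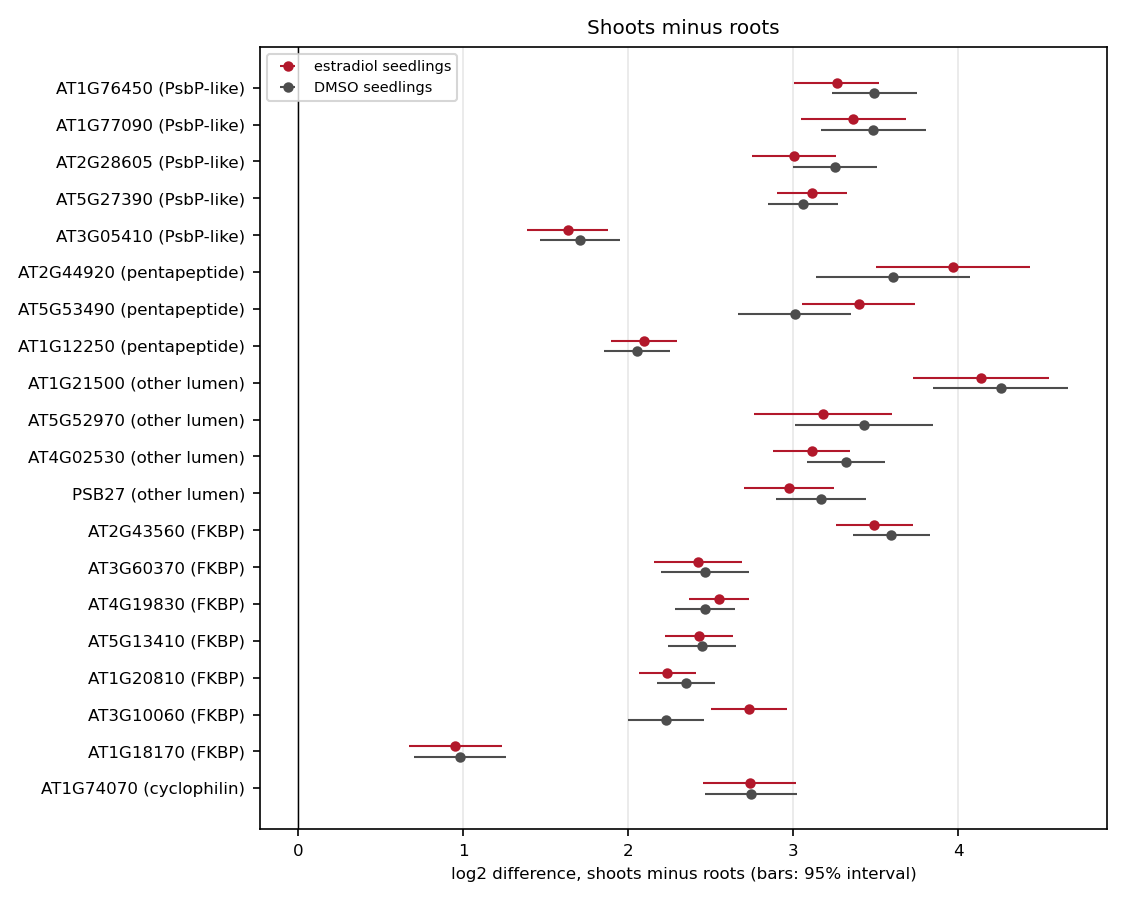
Shoot minus root log2 difference (x axis, with 95% interval) for each of the 20 lumen genes, in estradiol seedlings (red, upper point) and DMSO seedlings (grey, lower point). All intervals lie above 0; AT1G21500 has the largest value and AT1G18170 the smallest in both treatments, and AT3G10060 has the widest gap between the treatments.

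The estradiol and the DMSO seedlings share no array, and the organ differences of the 20 genes were alike in both. Across the 20 genes the differences correlated at 0.961 (Pearson) and 0.928 (Spearman), given as a description since the genes are not independent and each treatment's values come from the same 6 arrays. The largest gap between the treatments was 0.50, for AT3G10060. Differences were larger in estradiol seedlings for 6 of the 20 genes and for 50.9% of all genes. This count is the same quantity as the estradiol effect in shoots minus that in roots, given further below.

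Among other genes of the same compartment and pathway, lists drawn up by function were scarcely covered by the array annotation, and all their measured members were also higher in shoots. Of 15 classic lumen proteins 2 were measured, of 6 lumen proteases and redox enzymes 1, and of 8 lumen protein import components 1, all called higher in shoots in both treatments. PSAN, a lumen subunit of photosystem I, was higher in shoots by 3.42 in estradiol seedlings and 3.47 in DMSO seedlings. AT5G46390, of the proteases, was higher by 1.77 in estradiol seedlings and 1.98 in DMSO seedlings, and AT5G28750, of the import components, by 2.60 and 2.59. The 3 measured NDH subunits outside the lumen, of 12 listed, had a median difference of 3.76 in estradiol seedlings and 3.68 in DMSO seedlings, and NdhL led them with 3.93 and 3.90. The 6 measured light-harvesting and photosystem membrane genes, of 32 listed, had medians of 3.02 and 2.95, with LHCB4.2, a minor antenna protein of photosystem II, at 3.63 and 3.67. The range of the lumen genes in DMSO seedlings, 0.98 to 4.26, takes in these values.

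The FKBP and cyclophilin genes listed for products outside the thylakoid had no common direction. Of 16 listed, 5 were measured. In estradiol seedlings 3 were called higher and 2 lower in shoots, and in DMSO seedlings 2 higher and 2 lower, with medians of 0.31 and 0.29. Of all genes, 26.5% were called lower in shoots in estradiol seedlings and 26.6% in DMSO seedlings. AT2G21130, a cyclophilin gene, was higher in shoots by 1.49 in estradiol seedlings and 1.38 in DMSO seedlings. SQN, a cyclophilin that acts with microRNA-guided silencing, was lower in shoots, with differences of -1.20 and -0.95. All 7 FKBP genes of the lumen list, in contrast, were called higher in shoots in both treatments; the difference between the 2 sets was not tested. With estradiol, no measured gene of these 6 lists was called changed in either organ (limma).

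**Figure D3:**
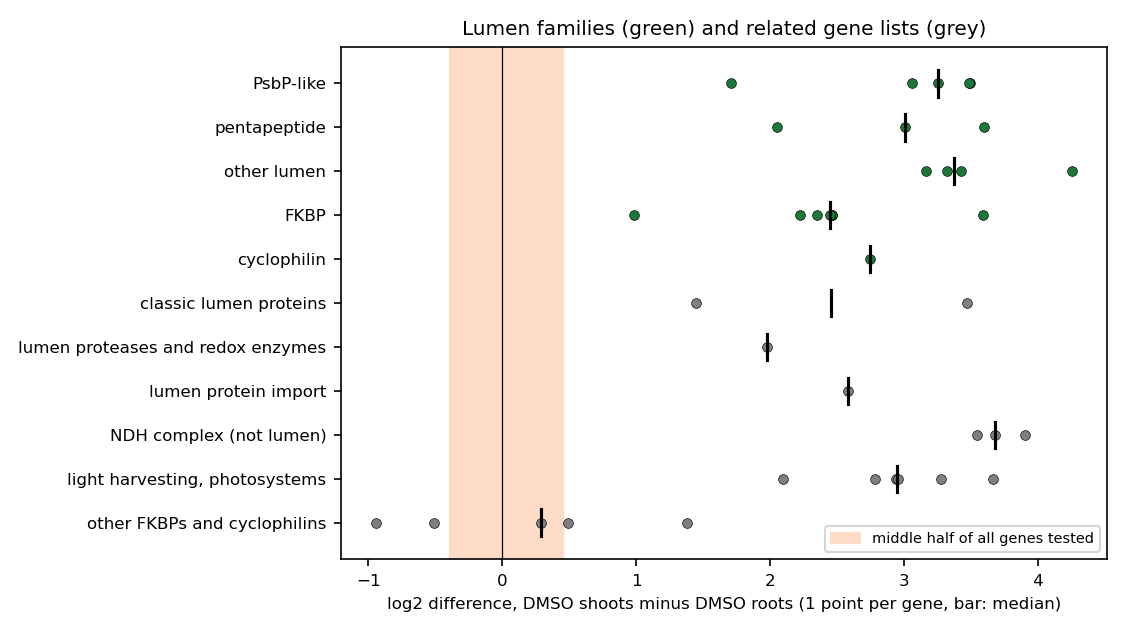
Shoot minus root log2 difference under DMSO (x axis, 1 point per gene, bar at the median) for the 5 measured lumen families (green) and 6 related gene lists (grey); the shaded band runs from the lower to the upper quartile of all 16550 genes, -0.39 to 0.45. The lumen genes lie between 0.98 and 4.26, right of the band, and the other FKBPs and cyclophilins lie on both sides of 0.

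Replicates of the lumen genes were tight in shoots and loose in roots. Their median SD over 3 arrays was 0.07 in estradiol shoots and 0.05 in DMSO shoots, against 0.17 in estradiol roots and 0.16 in DMSO roots. Over all genes the median SD was 0.17 in estradiol shoots and 0.16 in DMSO shoots, against 0.14 in both root groups. Only 1 lumen gene in estradiol shoots and 2 in DMSO shoots had an SD above the all-gene median, against 14 in estradiol roots and 12 in DMSO roots. The all-gene medians were not matched for signal level. The median log2 signal of the 20 genes lay between 8.31 and 8.61 on the shoot arrays and between 5.68 and 5.88 on the root arrays. The part of signal level in these SDs was not tested. The widest root scatter was that of AT2G44920 in estradiol roots (SD 0.45), AT1G21500 in estradiol roots (0.41) and AT5G52970, with 0.35 in estradiol roots and 0.36 in DMSO roots.

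The log2 signals of the 20 genes summed to 117.1, 119.9 and 119.5 on the estradiol root arrays and to 116.5, 118.6 and 119.2 on the DMSO root arrays. The first replicate had the lowest sum in both, while single genes were ordered in different ways. PSB27, AT2G44920, AT1G12250, AT4G02530, AT2G43560 and AT1G21500 were lowest on the first array of both root groups, 6 of 20 where 11.9% of all genes were. Highest on the second array of both root groups were 6 genes, again including PSB27, AT2G44920, AT2G43560 and AT1G21500, where 12.8% of all genes were. AT3G60370 had the opposite order, highest on the first array of both root groups, and AT5G52970 was lowest on the first estradiol and the second DMSO root array.

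The light-harvesting and photosystem genes had their highest sum on the second root array of each treatment, 50.6 with estradiol and 50.9 with DMSO. Their other root arrays lay between 47.6 and 48.3 with estradiol and between 47.1 and 48.7 with DMSO. The shoot markers were ordered otherwise, with the second estradiol root array lowest and the third DMSO root array far above the rest. On that DMSO array 7 of the 20 lumen genes were at their highest within DMSO roots, where 30.25% of all genes were. On the second DMSO root array 9 of the 20 were, where 33.78% of all genes were. Within DMSO roots the sum over the 20 genes was highest on the third array, at 119.2. Without the third DMSO root array, the organ differences in DMSO seedlings lay between 1.03 and 4.33, and all 20 were called higher in shoots. The largest shift of any lumen gene was then 0.20, for AT5G52970. The part of shoot RNA in the other root values was not tested.

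**Figure D4:**
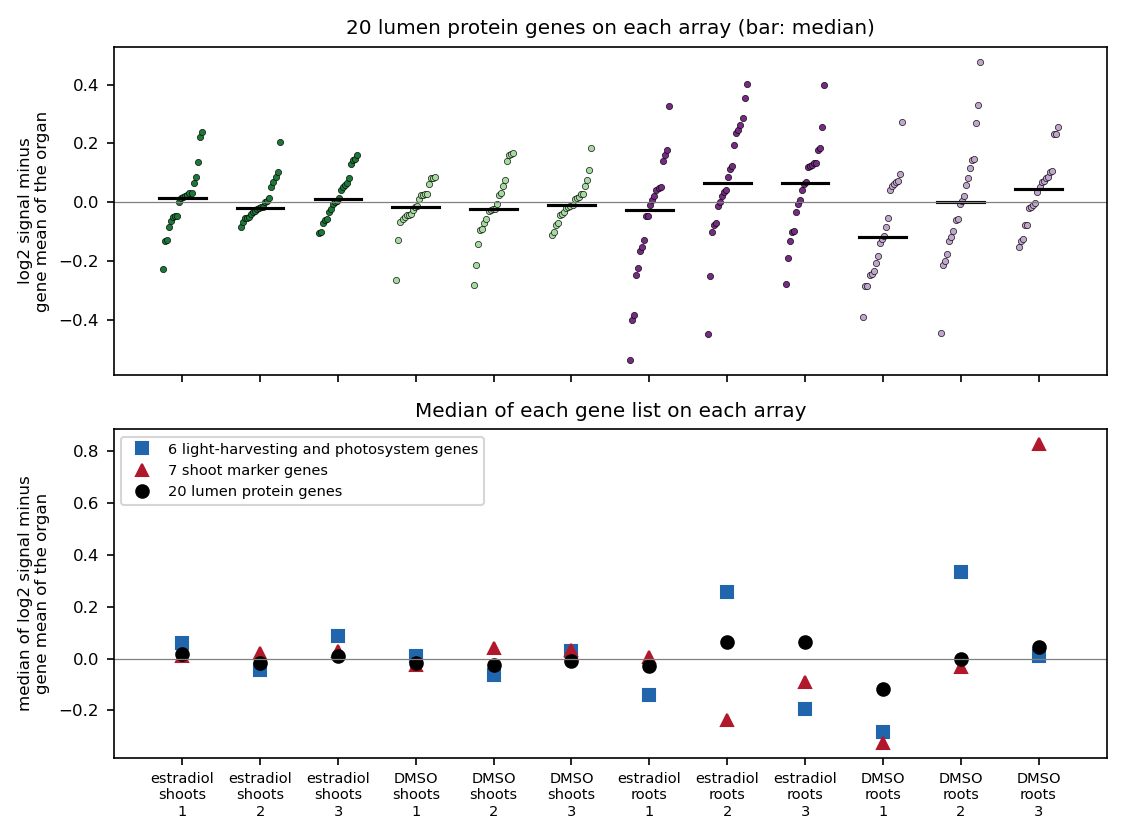
Upper panel: log2 signal of each of the 20 lumen genes minus its mean over the 6 arrays of the same organ, by array (points spread sideways in order of value, bar at the median). Lower panel: the medians for the lumen genes, 6 light-harvesting and photosystem genes and 7 shoot markers; the medians of the lumen genes stay between -0.12 and 0.07, while the shoot markers reach 0.83 on the third DMSO root array.

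Estradiol changed none of the 20 lumen genes at the threshold in the shoots of seedlings whose roots had been treated. In shoots 0 of 20 were called, where 0.163% of all genes were, and 0 of 20 had an unadjusted limma p under 0.05, where 9.95% of all genes had. The smallest adjusted p was 0.652 (limma), for AT4G19830. The median log2 difference, estradiol minus DMSO, was 0.01 over the 20 genes and -0.00 over all genes, and 11 of the 20 were above 0, as were 49.2% of all genes. Single differences ran from -0.13 for AT4G02530 to 0.18 for AT5G53490. All 5 PsbP-like genes were below 0, between -0.11 and -0.05, and all 3 pentapeptide genes above it, between 0.12 and 0.18; none of these passed the test.

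The intervals show how much change the shoot data leave room for. All 20 of the 95% intervals included 0 and lay within 1 log2 unit of it, and 18 lay within 0.5. The lowest bound was -0.43, for AT1G77090, and the highest 0.58, for AT2G44920. In 2 genes every estradiol shoot array lay above every DMSO shoot array, which held for 6.85% of all genes. These were AT3G60370, with 7.66, 7.42 and 7.45 against 7.40, 7.30 and 7.41, and AT4G19830, with means of 9.16 ± 0.06 against 9.03 ± 0.03 (SD, n = 3 each). Their differences were 0.14 ± 0.12 and 0.13 ± 0.08 (SE).

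In the treated roots 0 of 20 lumen genes were called, as were 0% of all genes. An unadjusted limma p under 0.05 was found for 1 of the 20 and for 5.17% of all genes. The median log2 difference, estradiol minus DMSO, was 0.08 over the 20 genes and -0.01 over all genes. Differences were above 0 for 15 of 20 genes and for 48% of all genes. The median over the 20 genes was 0.12 without the third DMSO root array and 0.04 without the first. The largest positive one was 0.29 ± 0.19 (SE) for AT5G52970, with 8.33, 8.87 and 8.98 in estradiol roots against 8.34, 8.14 and 8.84 in DMSO roots, groups that overlapped. In AT2G28605 and AT1G20810 every estradiol root array lay above every DMSO root array, as in 5.29% of all genes, with differences of 0.20 ± 0.12 and 0.13 ± 0.08 (SE). All 20 intervals lay within 1 log2 unit of 0, and 15 within 0.5.

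AT3G10060, an FKBP gene, was the exception among the root values. It was at 4.79, 4.57 and 4.91 in estradiol roots and at 5.29, 5.29 and 5.25 in DMSO roots. Every estradiol root array lay below every DMSO root array, as in 7.05% of all genes, and the DMSO root arrays were almost level (SD 0.02, against 0.18 in estradiol roots). The log2 difference was -0.52 ± 0.10 (SE), with a 95% interval from -0.75 to -0.29. It did not pass the test over all genes (limma adjusted p = 0.590), and it was picked out by its p in the present data. Without the third DMSO root array the difference was -0.53, with an adjusted p of 0.997 (limma). In shoots it was at 7.36, 7.46 and 7.64 with estradiol and at 7.52, 7.47 and 7.51 with DMSO, groups that overlapped, with a difference of -0.01 ± 0.10. No other FKBP gene of the list had a root difference below 0; the other 6 lay between 0.00 and 0.19.

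**Figure D5:**
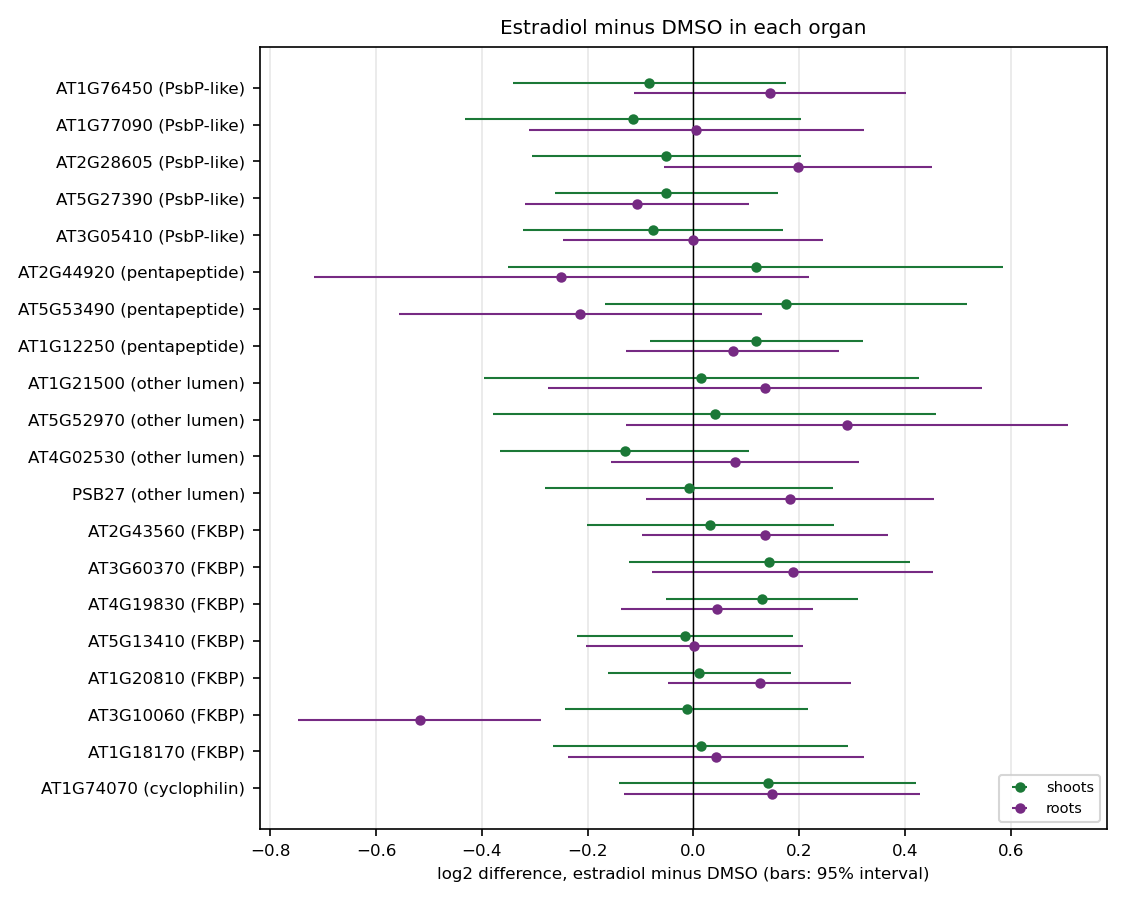
Estradiol minus DMSO log2 difference (x axis, with 95% interval) for each of the 20 lumen genes in shoots (green, upper point) and roots (purple, lower point). All shoot intervals include 0, and the root interval of AT3G10060, from -0.75 to -0.29, is the only one that does not.

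The estradiol effect in shoots minus that in roots was not called for any of the 20 genes, nor for any of all genes (0%, by limma). An unadjusted p under 0.05 was found for 1 of the 20, AT3G10060, and for 5.41% of all genes. Its difference between the organs was 0.50 ± 0.15 (SE; limma adjusted p = 0.657). The median over the 20 genes was -0.06, against 0.00 over all genes, and 6 of 20 were above 0, as were 50.9% of all genes. The median over the 20 genes was -0.10 without the third DMSO root array and -0.02 without the first. The pentapeptide genes AT5G53490 and AT2G44920 had the next largest values, 0.39 ± 0.22 and 0.37 ± 0.30 (SE). For the 19 genes other than AT3G10060 the interval included 0, and 10 of the 20 intervals lay within 0.5 log2 units of 0.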

How the data were processed

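Affymetrix 1-colour arrays measured RNA from 12 samples, grouped by sample title. The deposited values are log2 signals, from 0.339 to 14.1, that the authors made in Affymetrix Expression Console 1.3 according to the submitters' processing notes. The background correction and normalization were not given in the sources used here. Genes came from GEO's platform annotation, updated through RefSeq (TAIR10.1): 16722 probe sets had 1 gene, 759 several and 20927 none. The probe set with the highest mean was kept for each of 16550 genes, and each measured lumen gene had 1. The number of arrays limits the precision.

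All genes and arrays were fitted in R 4.3.3 with limma 3.58.1 (lmFit, eBayes), 1 mean for each group, 8 residual degrees of freedom and no signal filter. P-values were adjusted by Benjamini-Hochberg and called under 0.05. The code was tested on simulated data. Alternatives are given in the closing section.

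Arrays are shown singly for the largest and smallest organ difference in each family and for genes with an unadjusted p under 0.05 in an estradiol comparison; AT3G60370, AT4G19830 and AT5G52970 were added after their values were seen. From each related list the called gene with the largest organ difference in each direction is named. Members, families and lists were chosen with earlier results of these data known, and families rest on general knowledge of the loci. A gene wrongly listed as a protease was removed before its values were seen.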

Additional observations from a re-analysis of the deposited data

How the results depend on the processing

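The calls did not depend on the processing in any alternative run. All 20 lumen genes remained called higher in shoots in both treatments with each array left out, with organs or treatments fitted alone, a random block of root and shoot arrays with the same treatment and replicate number (which the labels do not tie to the same seedlings), array weights, eBayes with trend and robust, median subtraction, quantile normalization, 16 added to linear values, other probe set choices and thresholds of 0.01 and 0.1; with the filter on dim genes 19 were left to test, all called. No lumen gene was called for estradiol in roots, in shoots or for their difference in any of these; the difference could not be fitted within 1 organ. For AT3G10060 in roots the adjusted p ran from 0.167 (limma, among genes above the median level) to 0.997 (without DMSO roots replicate 3), and the log2 difference from -0.59 (without estradiol roots replicate 3) to -0.34 (16 added to linear values). The median organ difference in estradiol seedlings, 2.99, was 3.17 with array medians subtracted and 2.55 with 16 added; that in DMSO seedlings, 3.03, was 3.24, 2.54 and, with quantile normalization, 3.16. Leaving out each array gave 2.91 to 3.02 in estradiol seedlings and at most 3.07 in DMSO seedlings. Subtracting medians gave all-gene medians of 0.27 in estradiol and 0.29 in DMSO seedlings, against 0.09 in both as deposited. The share of called genes that were higher in shoots was then 65.33% in estradiol seedlings and 66.25% in DMSO seedlings, against 49.55% and 49.25% as deposited. The lumen median exceeded that of all genes by 2.90 in estradiol and 2.94 in DMSO seedlings as deposited, which median subtraction cannot alter, by 2.99 and 3.09 with quantile normalization and by 2.51 and 2.50 with 16 added. Leaving out each array gave medians of 0.04 to 0.12 for estradiol in roots and of -0.10 to -0.02 for the difference between the organs.

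The labels give same-numbered arrays only a shared number, and not every pair's correlation was over 0.1, so they were not treated as pairs. Their deviations correlated at 0.05 to 0.08 between the root groups, 0.03 to 0.14 between the shoot groups and 0.02 to 0.10 between organs. All 12 values were above 0, a hint from the data and not from the design. Each root array correlated best with its own number in the other root group, while the third DMSO shoot array correlated more with the second estradiol shoot array than with the third. With a replicate block, 20 lumen genes were again called higher in shoots in each treatment and 0 changed with estradiol; over all genes it gave 20 calls in shoots, against 27 without it, and 0 in roots in both. Outlier tests are not run in groups of 3, so none is given.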

Other observations

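Of the lumen genes without a probe set of their own, 2 lie on probe sets shared with a neighbour, and their signals cannot be assigned to either gene. The probe set of AT4G24930 and AT4G24940 was at 7.42, 7.45 and 7.36 in estradiol shoots against 4.44, 4.50 and 4.71 in estradiol roots, and at 7.46, 7.64 and 7.58 in DMSO shoots against 4.52, 4.56 and 4.67 in DMSO roots. The probe set of AT3G15520, a cyclophilin gene, and AT3G15518 was at 9.51, 9.59 and 9.60 in estradiol shoots against 5.68, 6.02 and 5.93 in estradiol roots, and at 9.49, 9.55 and 9.52 in DMSO shoots against 6.05, 5.98 and 6.03 in DMSO roots. On both probe sets every shoot array lay above every root array of the same treatment. This held for 30.8% of the 16550 genes tested in estradiol seedlings and 30.3% in DMSO seedlings. The 2 shared probe sets are not among those genes.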
